A study of Aspergillus nidulans with 12 samples.

Results

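The transcripts of 10 genes that take glucose to pyruvate and from there to acetaldehyde were followed in the filamentous fungus Aspergillus nidulans, in 3 strains and at 2 harvests. The genes were picked by identifier from the table of read counts, by a rule that uses no measured value, and are 10 of its 10681 genes: hxkA (AN7459), glkA (AN8689), pgi (AN6037), pfkA (AN3223), fbaA (AN2875), tpiA (AN6900), gpdA (AN8041), pgkA (AN1246), pkiA (AN5210) and pdcA (AN4888). The names are those in common use for these identifiers. The RefSeq annotation used here lists 9 of the 10 (all but glkA) and gives a symbol only to gpdA and pgkA.

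Glycolysis phosphorylates glucose, splits it into triose phosphates and oxidises these to pyruvate, with a yield of ATP and NADH. Pyruvate then goes to the mitochondrion, where the pyruvate dehydrogenase complex makes acetyl-CoA, or is decarboxylated by pyruvate decarboxylase to acetaldehyde, which alcohol dehydrogenases reduce to ethanol. Most of the steps between the sugar phosphates and phosphoenolpyruvate run in both directions and also serve gluconeogenesis, whereas the phosphofructokinase and pyruvate kinase steps are bypassed by other enzymes when sugar is made. The phosphoglycerate mutase and enolase steps between pgkA and pkiA are not among the 10 genes.

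Poly(A) RNA of whole cultures was sequenced from Nextera libraries. The wild type was strain A1153, the deletion-labelled strain was drim2.4 and the overexpression-labelled strain was Oegr_3; the labels tie both altered strains to rimO, whose product the series title calls a homolog of Rim15p, a protein kinase known in budding yeast for entry into stationary phase. Each strain was sampled at 17 h, as a stage of primary metabolism, and again late, 8 h after the glucose in the medium had run out, which was at 48 h in the wild type and the overexpression-labelled strain and at 54 h in the deletion-labelled strain, whose glucose uptake is slower per the labels. Each of the 6 groups had 2 cultures, grown at 37 °C in liquid medium whose carbon source was 50 mM glucose and whose nitrogen source was 10 mM nitrate. Each altered strain carries the name of 1 isolate, and no source used here names the promoter behind the overexpression. For the deletion, the late hour and the strain cannot be told apart.

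The 12 libraries held 9269951 to 17891416 counts, and the lowest count of any of the 10 genes in any library was 565. Levels are given as CPM (counts scaled to a common library size) on library sizes scaled by the trimmed mean of M values (TMM), 1 value for each culture. Changes are log2 ratios from edgeR's quasi-likelihood test, fitted on all 12 libraries and 9670 genes, with the standard error after ±; a gene was called where the Benjamini-Hochberg adjusted p was below 0.05. AN7572, taken here for the rimO gene although neither the files nor the annotation name it, had levels of 99.8 and 109 CPM in the wild type cultures of 17 h and 447 and 437 CPM in those of 48 h. The libraries labelled deletion had 60.5 and 67.4 CPM early and 51.6 and 48.4 CPM late, so the reads of AN7572 were lower there but not gone. Those labelled overexpression had 588 and 504 CPM early, above the wild type, and 322 and 357 CPM late, below the wild type of the same hour.

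At 17 h the 10 genes together took 2.68% and 2.72% of all counts in the wild type cultures, 2.19% and 2.36% in the deletion-labelled cultures and 2.44% and 2.11% in the overexpression-labelled cultures. At the late harvest they took 0.372% and 0.386% in the wild type, 0.573% and 0.566% in the deletion-labelled strain and 0.318% and 0.322% in the overexpression-labelled strain. Every late library therefore lay below every 17 h library, and among the late libraries the deletion-labelled ones were the highest. Most of the early share came from the pair gpdA and pdcA. In the wild type at 17 h, gpdA, the glyceraldehyde-3-phosphate dehydrogenase whose promoter is widely used to drive strong expression in this fungus, took 0.841% and 0.826%, and pdcA took 0.790% and 0.826%.

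**Figure D1:**
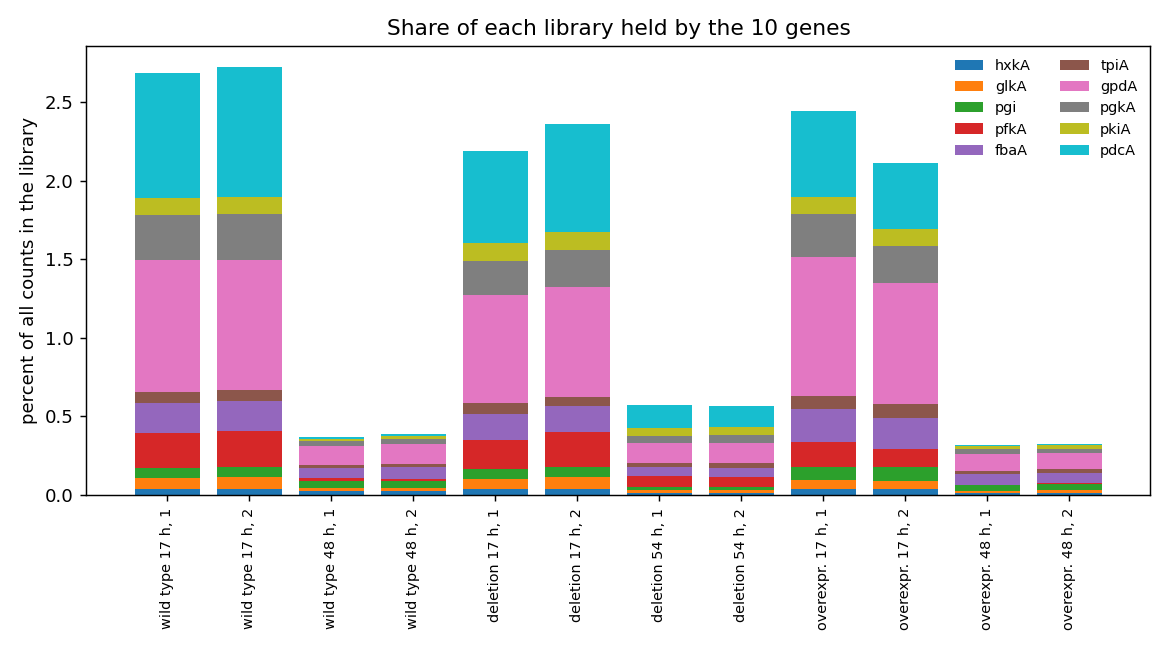
Percent of all counts held by the 10 genes in each of the 12 libraries (1 bar per culture, stacked by gene, y axis from 0). The 17 h bars stand between 2.11% and 2.72% and the late bars between 0.318% and 0.573%.

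The first comparison asked how the genes differed between the late harvest, after glucose had run out, and 17 h, within each strain. All 10 genes fell in all 3 strains, and no late culture overlapped a 17 h culture of its own strain for any of them. Such separation was common here: 92.3% of all tested genes did not overlap between harvests in the wild type, 89.6% in the deletion-labelled strain and 89.9% in the overexpression-labelled strain, with 47.3%, 43.4% and 47.7% lower. In the wild type 83.2% of all tested genes were called, 40.3% higher and 43% lower. There 9 of the 10 genes fell at least 2-fold, against 27.1% of all genes. In the deletion-labelled strain 80.6% of all genes were called, 41.3% higher and 39.3% lower, and 10 of 10 fell at least 2-fold against 20.1%. In the overexpression-labelled strain 81.8% were called, 38.2% higher and 43.6% lower, and 10 of 10 fell at least 2-fold against 26.2%. The median change of the 10 genes was -2.70 in the wild type, -2.01 in the deletion-labelled strain and -2.56 in the overexpression-labelled strain, beside -0.04, 0.06 and -0.10 for all genes. RNA of whole cultures was measured, so fewer cells of a kind and less transcript per cell cannot be told apart.

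The glucose-phosphorylating enzymes fell by different amounts. Hexokinase hxkA had 421 and 427 CPM early and 204 and 197 CPM late in the wild type, a change of -1.08 ± 0.08 (adjusted p = 9.28e-09), so that 47.3% of the early level was kept. Glucokinase glkA had 864 and 929 CPM early and 204 and 199 CPM late, a change of -2.16 ± 0.10 (adjusted p = 2.38e-11), with 22.5% kept. The ratio of hxkA to glkA counts moved accordingly, from 0.488 and 0.460 early to 1.00 and 0.989 late. Among deletion-labelled cultures hxkA stood at 407 and 418 CPM early and 146 and 143 CPM late, and glkA at 744 and 865 CPM and then 149 and 162 CPM. Among overexpression-labelled cultures hxkA stood at 436 and 446 CPM and then 105 and 122 CPM, and glkA at 586 and 551 CPM and then 126 and 136 CPM. Of the early hxkA level 34.9% was kept in the deletion-labelled strain and 25.6% in the overexpression-labelled strain, and both altered strains ended below the wild type for both kinases.

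The next enzymes, which handle the hexose phosphates, held both the mildest fall of the wild type and a very steep one. Glucose-6-phosphate isomerase pgi, which interconverts glucose and fructose 6-phosphate and also feeds gluconeogenesis, had 703 and 739 CPM early and 398 and 390 CPM late in the wild type, a change of -0.87 ± 0.09 (adjusted p = 3.06e-07). This was the only one of the 10 that fell less than 2-fold there, and the call was lost (log2 change -0.16, adjusted p = 0.0874) when the libraries were quantile-normalised. It fell further in the other strains: from 707 and 759 CPM to 166 and 150 CPM in the deletion-labelled strain, a change of -2.21, and from 938 and 916 CPM to 294 and 335 CPM in the overexpression-labelled strain, a change of -1.56. Phosphofructokinase pfkA, the committing step of glycolysis, went from 2616 and 2760 CPM to 134 and 120 CPM in the wild type, a change of -4.40 ± 0.16 (adjusted p = 2.59e-12) that left 4.72% of the early level. It went only from 2045 and 2484 CPM to 659 and 644 CPM in the deletion-labelled strain, a change of -1.80 ± 0.14 with 28.8% kept. The overexpression-labelled cultures went from 1712 and 1279 CPM to 41.5 and 51.0 CPM, a change of -5.02 ± 0.16 with 3.08% kept.

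Fructose-bisphosphate aldolase fbaA and triose-phosphate isomerase tpiA, which make and interconvert the triose phosphates, fell to an extent between those of pgi and pfkA in the wild type. The fbaA transcript went from 2168 and 2215 CPM to 595 and 648 CPM in the wild type, from 1804 and 1831 CPM to 518 and 557 CPM in the deletion-labelled strain and from 2312 and 2145 CPM to 568 and 540 CPM in the overexpression-labelled strain. The log2 changes were -1.82, -1.76 and -2.01, with standard errors of 0.09, and the 6 late cultures of the 3 strains lay within 518 to 648 CPM. The tpiA transcript went from 848 and 846 CPM to 173 and 178 CPM in the wild type, a change of -2.27 ± 0.08. It went from 740 and 700 CPM to 239 and 251 CPM in the deletion-labelled strain, a change of -1.56 ± 0.08, and from 932 and 959 CPM to 179 and 184 CPM in the overexpression-labelled strain, a change of -2.38 ± 0.08.

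The enzymes of the later, energy-yielding steps fell more steeply in the wild type than the upper ones apart from pfkA. The gpdA transcript went from 9750 and 9803 CPM to 1075 and 1069 CPM, a change of -3.19 ± 0.10 (adjusted p = 6.14e-13), and kept 10.96%. Phosphoglycerate kinase pgkA, which makes ATP, went from 3300.1 and 3469 CPM to 278 and 311 CPM, a change of -3.52 ± 0.11 (adjusted p = 6.8e-13), and kept 8.70%. Pyruvate kinase pkiA, the last step before pyruvate, went from 1266 and 1289 CPM to 145 and 147 CPM, a change of -3.13 ± 0.08 (adjusted p = 9.01e-14), and kept 11.5%. These genes kept more of the early level in the deletion-labelled strain. There gpdA went from 7601 and 7881 CPM to 1190.5 and 1249 CPM (15.8% kept), pgkA from 2459 and 2637 CPM to 422 and 483 CPM (17.8% kept) and pkiA from 1244 and 1297 CPM to 466 and 456 CPM (36.3% kept). In the overexpression-labelled strain gpdA went from 9661 and 8399.6 CPM to 929 and 849 CPM (9.84% kept), pgkA from 2994 and 2598 CPM to 249 and 244 CPM (8.82% kept) and pkiA from 1196 and 1177 CPM to 177 and 179 CPM (15.0% kept).

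The steepest fall of the 10 in the wild type was that of pdcA, the pyruvate decarboxylase at the entry to ethanol fermentation. It had 9162 and 9795 CPM early and 113 and 101 CPM late, a change of -6.47 ± 0.16 (adjusted p = 6.57e-14) that left 1.12% of the early level. The overexpression-labelled cultures went from 6013 and 4565 CPM to 50.6 and 51.8 CPM, a change of -6.69 ± 0.16 (adjusted p = 6.34e-14) that left 0.968%. In the deletion-labelled strain it went from 6482 and 7789.9 CPM to 1337 and 1276 CPM, a change of -2.45 ± 0.13 (adjusted p = 3.46e-10) that left 18.3%. The late pdcA level of the deletion-labelled cultures was thus below every 17 h culture of any strain and above every other late culture.

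**Figure D2:**
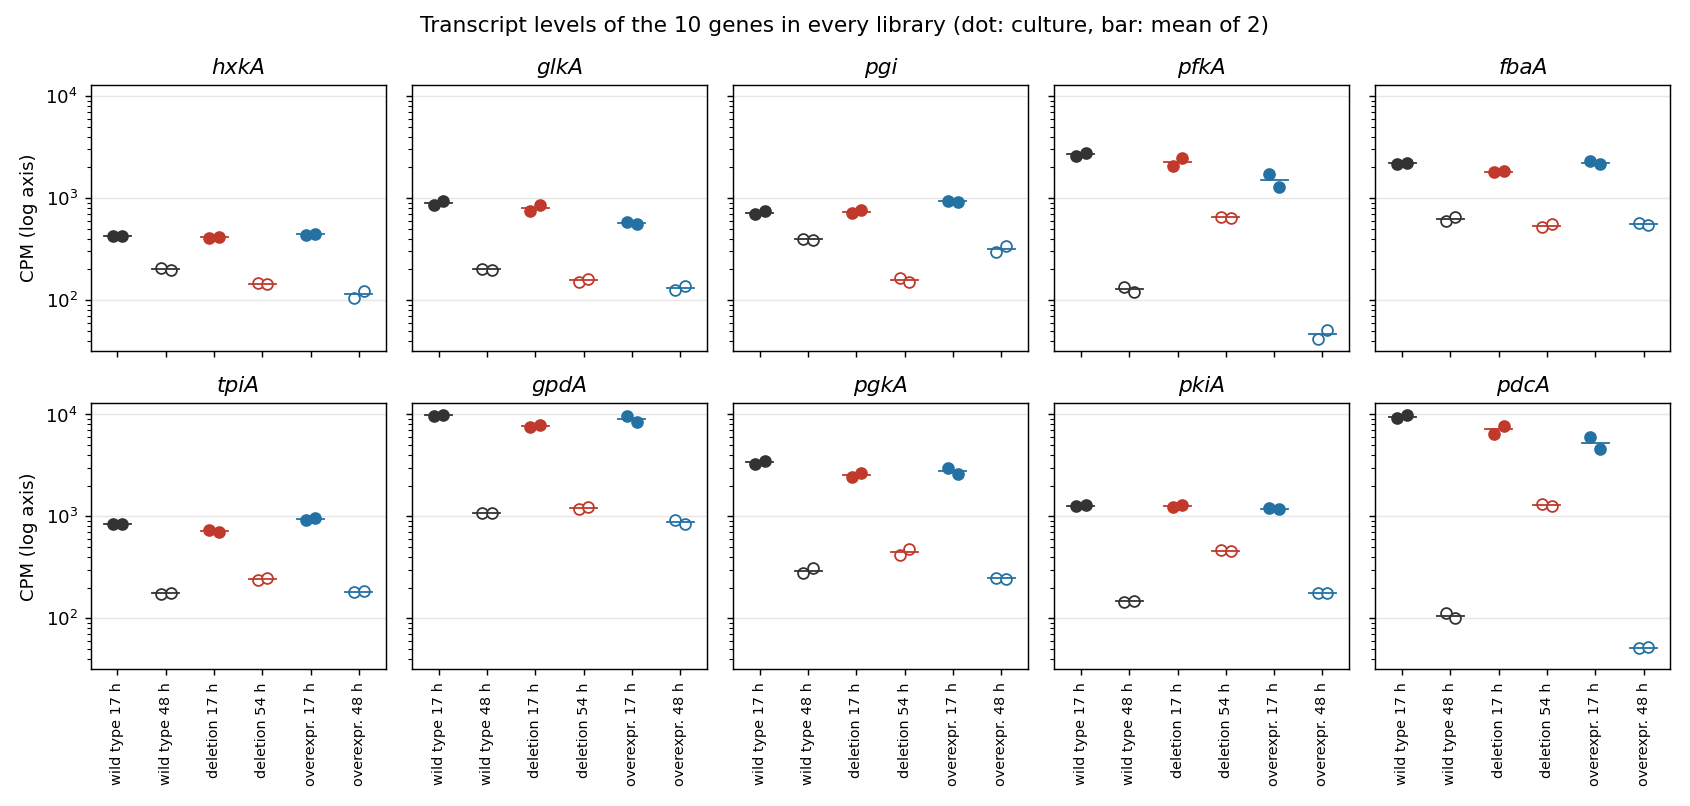
CPM of each of the 10 genes on a log axis, by strain and harvest (filled: 17 h; open: late; 1 dot per culture, bar: mean of 2). For pfkA, pkiA and pdcA the late deletion-labelled dots stand well above the late dots of the other strains, and for pgi they stand below them.

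**Figure D3:**
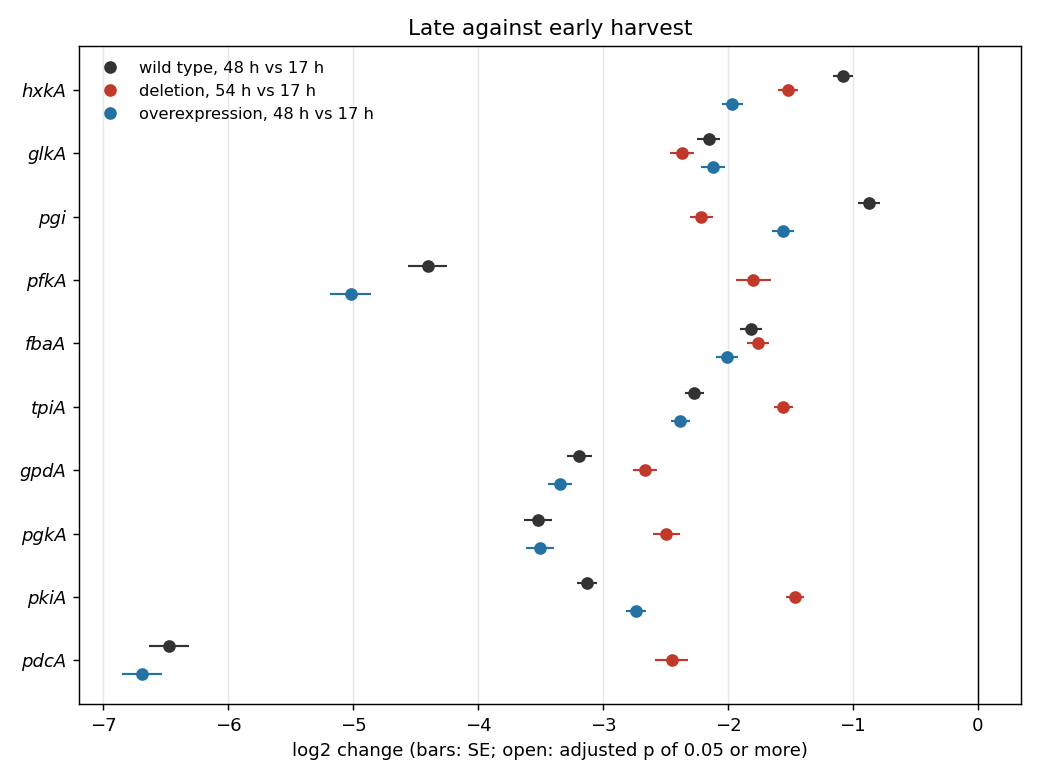
Log2 change from 17 h to the late harvest for the 10 genes in the 3 strains, with standard errors. All points lie below 0, and the spread between strains is widest for pdcA (-6.69 to -2.45) and pfkA (-5.02 to -1.80).

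At 17 h, with glucose still present, the second set of comparisons set each altered strain against the wild type. Both use the same wild type cultures, and so do the late ones further on, so their results are not independent of one another. In the deletion-labelled strain none of the 10 genes was called, where 1.66% of all genes were, 0.362% higher and 1.3% lower. At an unadjusted p below 0.05 there were 5 of the 10, all lower, beside 11.8% of all genes. The changes lay between -0.41 and 0.02, and for 7 of the 10 genes both deletion-labelled cultures were lower than both wild type cultures; glkA, pgi and pkiA overlapped. Of all genes, 19.9% were lower in this way and 23.3% higher. The lowest values were those of pgkA (-0.41 ± 0.10, adjusted p = 0.0626), pdcA (-0.41 ± 0.13, adjusted p = 0.149) and gpdA (-0.34 ± 0.09, adjusted p = 0.0985). DESeq2 called 4 of these genes lower (fbaA, gpdA, pgkA and pdcA), and limma-voom and a fit on the compared groups alone each called 2 (gpdA and pgkA). The pgkA change was also called without either late wild type library, at adjusted p = 0.0472 and 0.0481.

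In the overexpression-labelled strain at 17 h, 1 of the 10 genes was called higher and 3 lower, where 15.1% and 14.5% of all genes were (29.5% either way). Lower were glkA (-0.66 ± 0.09, adjusted p = 9.68e-05), pfkA (-0.85 ± 0.14, adjusted p = 0.000355) and pdcA (-0.84 ± 0.13, adjusted p = 0.000182), and higher was pgi (0.36 ± 0.09, adjusted p = 0.00641). The groups did not overlap for these 4 genes, nor for 5 of the other 6 (all but fbaA); in all, 3 of the 10 stood higher and 6 lower without overlap, where 36.2% and 31.1% of all genes did. For pfkA and pdcA the second overexpression-labelled culture was the lower one, and their coefficients of variation between the 2 cultures, 20.5% and 19.4%, were the largest of the 10 genes in any group. The pgi call was lost without the first wild type 17 h library (0.33, adjusted p = 0.0708), and the pdcA call was lost under quantile normalisation (-0.64, adjusted p = 0.0536). The pgkA change missed the threshold (-0.28 ± 0.10, adjusted p = 0.0525) and was called under 9 of the alternatives, DESeq2 among them at 0.00915. The other changes, of hxkA, fbaA, tpiA, gpdA and pkiA, lay between -0.11 and 0.16.

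After glucose had run out, the deletion-labelled strain differed from the wild type in nearly all 10 genes, in both directions. Higher were 5 of the 10 and lower were 4, where 40.2% and 39.8% of all genes were called (80% either way); the median of the 10 was 0.33 beside -0.01 for all genes. At least 2-fold higher were 3 genes, where 24.1% of all genes were, and at least 2-fold lower was 1, where 18% were. The 3 were pdcA, 12.3-fold higher (3.62 ± 0.14, adjusted p = 1.02e-11), pfkA, 5.13-fold higher (2.36 ± 0.14, adjusted p = 1.58e-09) and pkiA, 3.15-fold higher (1.66 ± 0.08, adjusted p = 6.34e-11). Of the enzymes between these, pgkA (0.62 ± 0.10, adjusted p = 5.67e-05) and tpiA (0.48 ± 0.07, adjusted p = 3.83e-05) were higher, and gpdA was not called (0.19 ± 0.09, adjusted p = 0.0741), although both of its deletion-labelled cultures stood above both wild type ones.

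The genes that were lower in the late deletion-labelled cultures catalyse early steps, with the higher pfkA lying between them. The isomerase pgi was lower by the most (-1.32 ± 0.09, adjusted p = 5.15e-09), followed by hxkA (-0.48 ± 0.08, adjusted p = 8.1e-05), glkA (-0.37 ± 0.09, adjusted p = 0.00199) and fbaA (-0.21 ± 0.08, adjusted p = 0.0334). The fbaA call was lost without the first 54 h deletion-labelled library (-0.16, adjusted p = 0.181) and under a filter of 5 CPM (-0.18, adjusted p = 0.0605). The groups overlapped for none of the 10 genes, 6 of them higher and 4 lower, and for 90% of all genes they did not overlap either. Late levels of the deletion-labelled cultures were also set against the log2 fall of the wild type from 17 h to 48 h. The starting point was the wild type level at 17 h, not that of the deletion-labelled strain itself. On this measure the late deletion-labelled cultures had covered 44.2% of that fall for pdcA, 46.4% for pfkA and 47.1% for pkiA. For tpiA, pgkA and gpdA they had covered 78.9% to 94.2%. For fbaA, glkA, hxkA and pgi they lay below the late wild type level, at 111.6%, 117.3%, 143.9% and 251.4%. From its own 17 h level, fbaA changed by -1.76 in the deletion-labelled strain, against -1.82 in the wild type.

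In the late overexpression-labelled strain 1 gene was called higher and 6 lower, where 23% and 18.1% of all genes were (41.1% either way). The lower genes were pfkA (-1.46 ± 0.15, adjusted p = 2.2e-06), pdcA (-1.06 ± 0.13, adjusted p = 1.87e-05), hxkA (-0.83 ± 0.08, adjusted p = 2.03e-06), glkA (-0.62 ± 0.09, adjusted p = 0.000107), pgi (-0.33 ± 0.09, adjusted p = 0.00881) and gpdA (-0.27 ± 0.09, adjusted p = 0.0293). The higher gene was pkiA (0.28 ± 0.07, adjusted p = 0.00758). At least 2-fold lower were pfkA and pdcA, 2 of the 10, where 6.08% of all genes were. The groups overlapped for none of the 10 genes, called or not, with 2 higher and 8 lower, where 70.6% of all genes did not overlap. Several of the smaller calls ended when 1 library was left out. Without the first wild type 48 h library pgi (adjusted p = 0.0584), pkiA (0.0572) and gpdA (0.134) were not called. The pgi call was also lost without the first overexpression-labelled 48 h library (-0.23, adjusted p = 0.0909). The gpdA call was also lost without the second library of either group (adjusted p = 0.134 and 0.154), and under upper-quartile scaling, library totals and quantile normalisation (adjusted p = 0.0717, 0.082 and 0.839). The pgkA change (-0.26, adjusted p = 0.0576) was called by DESeq2, by limma-voom and in a fit on the compared groups alone (adjusted p = 0.0355, 0.0367 and 0.0271), and fbaA and tpiA were not called.

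**Figure D4:**
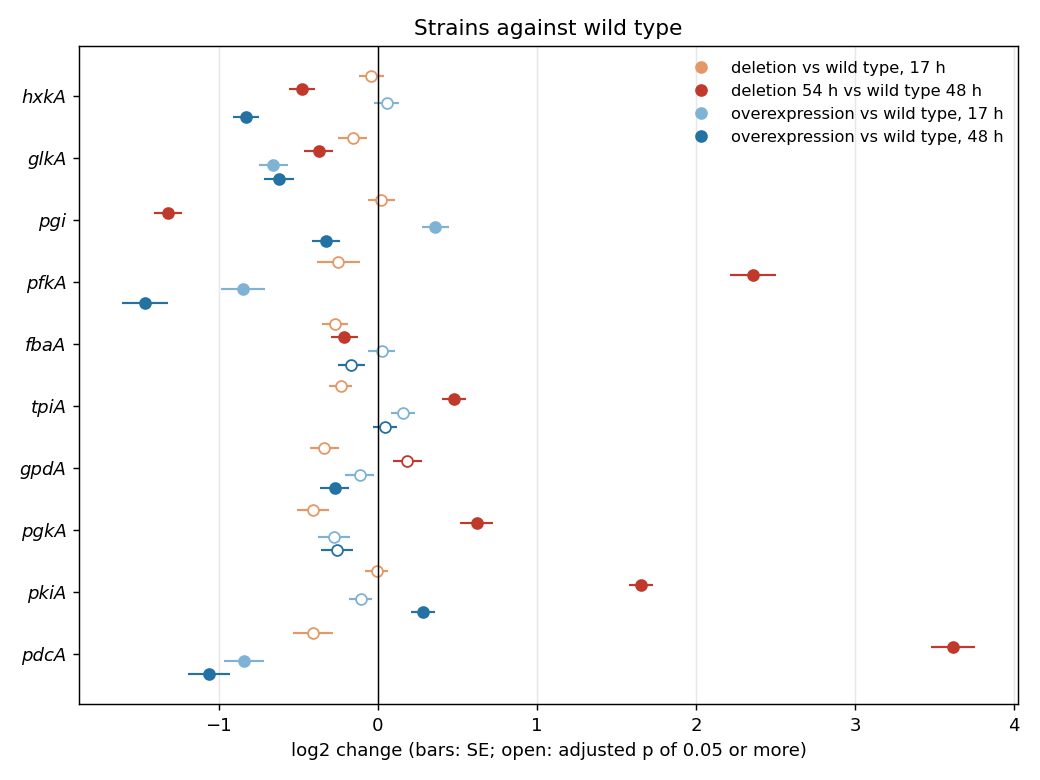
Log2 change of each altered strain against the wild type at 17 h and at the late harvest, with standard errors (filled: adjusted p below 0.05). At the late harvest pdcA (3.62), pfkA (2.36) and pkiA (1.66) stand far to the right in the deletion-labelled strain, and pfkA (-1.46) and pdcA (-1.06) to the left in the overexpression-labelled strain.

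Whether the change from 17 h to the late harvest itself differed from that of the wild type was tested as an interaction in the same fit. For the deletion-labelled strain it differed in 8 of the 10 genes, 6 toward a smaller fall and 2 toward a larger one, where 34% and 32.8% of all genes were called in those directions (66.8% either way). The 6 were pdcA (4.02 ± 0.18), pfkA (2.61 ± 0.20), pkiA (1.66 ± 0.10), pgkA (1.03 ± 0.14), tpiA (0.71 ± 0.11) and gpdA (0.52 ± 0.13), with adjusted p-values from 2.21e-10 to 0.00256, and the gpdA call was lost under quantile normalisation (0.23, adjusted p = 0.245). The 2 were pgi (-1.34 ± 0.12, adjusted p = 3.39e-07) and hxkA (-0.44 ± 0.11, adjusted p = 0.00362). The glkA value (-0.22, adjusted p = 0.157) was called in the fits with library totals (-0.37, adjusted p = 0.0176) and quantile normalisation (-0.49, adjusted p = 0.000846), without the first 17 h deletion-labelled library (adjusted p = 0.0411) and without the second 54 h one (adjusted p = 0.0445).

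For the overexpression-labelled strain the interaction was called in 4 of the 10 genes, 1 higher and 3 lower, where 13% and 15.9% of all genes were (28.9% either way). The larger falls were those of hxkA (-0.88 ± 0.11, adjusted p = 4.55e-05), pgi (-0.69 ± 0.12, adjusted p = 0.000816) and pfkA (-0.62 ± 0.20, adjusted p = 0.0302), and the smaller fall was that of pkiA (0.39 ± 0.10, adjusted p = 0.0117). Leaving out any 1 of 6 libraries ended the pfkA call: the first or second wild type 17 h library (adjusted p = 0.0959 and 0.0605), the first wild type 48 h library (0.112), the second 54 h deletion-labelled library (0.0522), and the first overexpression-labelled library at 17 h (-0.39, adjusted p = 0.144) or 48 h (0.129). The pkiA call ended without the second wild type 17 h library (adjusted p = 0.0506). The pdcA fall was the steepest of the 10 in both strains, and its difference was not called (-0.22 ± 0.18, adjusted p = 0.405).

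Ratios of counts of gene pairs within a library need no scaling between libraries, and they are read here only for how they move, since counts are not corrected for gene length. The ratio of pfkA to pgi, the enzymes on either side of fructose 6-phosphate, was 3.72 and 3.73 in the wild type at 17 h and 0.336 and 0.308 at 48 h. The deletion-labelled cultures had 2.89 and 3.27 at 17 h and 3.97 and 4.30 at 54 h, so the ratio was higher late than early. The overexpression-labelled cultures had 1.83 and 1.40 at 17 h, lower than in either other strain, and 0.141 and 0.152 at 48 h. The ratio of pdcA to gpdA behaved alike: 0.940 and 0.999 against 0.105 and 0.0942 in the wild type, 0.853 and 0.988 against 1.12 and 1.02 in the deletion-labelled strain, and 0.622 and 0.543 against 0.0545 and 0.0610 in the overexpression-labelled strain. Thus in the late deletion-labelled cultures pdcA had fallen about as far as gpdA, whereas in the other strains it had fallen much further.

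The ratio of pkiA to gpdA set the late deletion-labelled cultures apart in another way. It was 0.130 and 0.132 in the wild type at 17 h and 0.135 and 0.138 at 48 h, 0.164 and 0.165 against 0.392 and 0.365 in the deletion-labelled strain, and 0.124 and 0.140 against 0.191 and 0.211 in the overexpression-labelled strain. Both altered strains therefore ended above the wild type, whose ratio hardly moved. The ratio of pgkA to gpdA, neighbours in the pathway, stayed within 0.259 to 0.387 over all 12 libraries, and that of fbaA to tpiA within 2.17 to 3.64.

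**Figure D5:**
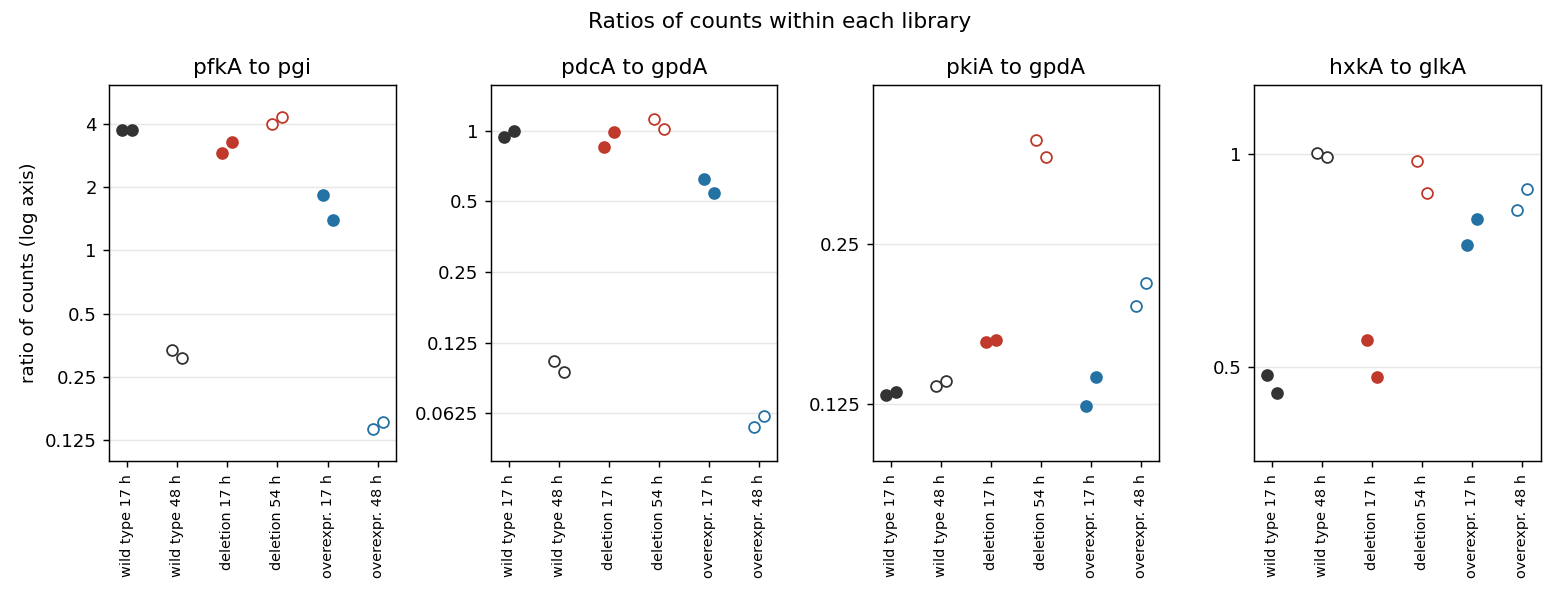
Ratios of counts between pairs of the 10 genes within each library, on log axes (filled: 17 h; open: late; 1 dot per culture). The pfkA to pgi ratio of the late deletion-labelled cultures (3.97 and 4.30) lies above all 17 h values, and those of the other late cultures lie between 0.141 and 0.336.

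Levels of different genes can be set side by side only per length, for which the authors' deposited table of log2 RPKM, 1 value per group and with no spread, was used. In it gpdA was the highest of the 10 in all 6 groups, at 12.95 in the wild type at 17 h and 10.13 at 48 h on the log2 RPKM scale. At 17 h pdcA came second in every strain, at 12.09 in the wild type, 11.85 in the deletion-labelled strain and 11.45 in the overexpression-labelled strain. At the late harvest of the authors' deposited table it was still second in the deletion-labelled strain, at 9.61, and ranked 9 of 10 in the wild type, at 5.89, and in the overexpression-labelled strain, at 4.79. The phosphofructokinase pfkA ranked 10, the lowest, in the late wild type (5.81) and the late overexpression-labelled strain (4.25) and 5 in the late deletion-labelled strain (8.43) of the authors' deposited table. The isomerase pgi moved the other way there, from rank 9 at 17 h to rank 3 at 48 h in the wild type, and stayed at rank 9 in the deletion-labelled strain. No error is attached to these group values, so neighbours in the order cannot be shown to differ.

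Across the 6 group means of log2(CPM + 1), pairs of the 10 genes correlated by 0.553 to 0.996, given as a description over 6 points that share libraries. The pairs gpdA and pgkA (r = 0.996) and pfkA and pdcA (r = 0.995) were the closest, and pgi and pfkA (r = 0.553) the farthest apart. Among 7173 other genes with a mean of at least 10 CPM, the profile most like the mean of the 10 was that of AN12452 (r = 0.999 over the 6 groups), followed by AN11995, AN3147, AN7360 and AN6787, each at r = 0.998. The profile most like that of pdcA was that of AN11337 (r = 0.999), with group means of 250.5 CPM in the wild type at 17 h, 2.98 CPM at 48 h, 41.8 CPM in the late deletion-labelled strain and 1.65 CPM in the late overexpression-labelled strain. AN1993, AN8206, AN4401 and AN6934 came next, at r from 0.997 to 0.999. A correlation does not measure the size of a fall, and these genes fell less than pdcA in the wild type. Their means there at 17 h and 48 h were 1678 and 511 CPM for AN1993 and 50.1 and 9.86 CPM for AN8206. For AN4401 they were 451.5 and 42.35 CPM, and for AN6934 26.9 and 5.32 CPM. Of the 5 genes named for each, 2 and 3 were also among the 5 closest over the 12 libraries.

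Genes of the steps around the 10 were described from lists of identifiers whose membership is general knowledge, since the annotation gives most of them no name. Their counts stand beside the shares of all genes called in the same comparisons: 43%, 39.3% and 43.6% lower and 40.3%, 41.3% and 38.2% higher late in the wild type, the deletion-labelled and the overexpression-labelled strain, and 40.2% higher and 39.8% lower in the late deletion-labelled cultures against the wild type. Among other enzymes that use pyruvate, 4 of 4 genes listed for pyruvate dehydrogenase and pyruvate carboxylase fell late in all 3 strains. In the late deletion-labelled cultures 3 of these 4 (AN5162 by 1.02 ± 0.08, AN9403 by 0.72 ± 0.08 and AN6708 by 0.59 ± 0.09, all entered as dehydrogenase subunits) were higher than in the wild type and AN4462, entered as the carboxylase, was lower (-0.62 ± 0.09). None of the 4 was called in the late overexpression-labelled cultures. The ratio of pdcA to AN5162 counts was 8.26 and 8.62 in the wild type at 17 h and 0.697 and 0.676 at 48 h, 4.21 and 4.07 in the late deletion-labelled strain and 0.350 and 0.371 in the late overexpression-labelled strain.

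On the route from acetaldehyde to ethanol and acetate, 5 of 6 listed genes rose late in the wild type and in the deletion-labelled strain and 4 of 6 in the overexpression-labelled strain. Under quantile normalisation AN8979 was not called in the wild type (-0.04, adjusted p = 0.928). AN2286 fell in all 3 strains; it is entered as an alcohol dehydrogenase. It had 4869 and 4933 CPM early and 48.6 and 54.2 CPM late in the wild type, 3552 and 4251 CPM and then 1277 and 1359 CPM in the deletion-labelled strain, and 2654 and 1915 CPM and then 80.4 and 78.7 CPM in the overexpression-labelled strain. Its changes were -6.58 ± 0.17, -1.57 ± 0.13 and -4.84 ± 0.16, and at the late harvest the deletion-labelled cultures were higher than the wild type by 4.68 ± 0.16 (adjusted p = 2.13e-12). In the late deletion-labelled cultures 2 of the 6 listed genes were higher than in the wild type and 4 lower, where 80% of all genes were called. AN8979, entered as another alcohol dehydrogenase, was the second higher one (4.88 ± 0.18), and it was also higher in the overexpression-labelled strain at 17 h (4.71 ± 0.21).

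Of 3 genes listed for glucose sensing and uptake, AN5860, entered as a glucose transporter, fell late in every strain and the other 2 rose. AN5860 had 2855 and 2813 CPM early and 2.44 and 2.80 CPM late in the wild type, 2188 and 2639.8 CPM and then 989 and 963 CPM in the deletion-labelled strain, and 1491 and 1133 CPM and then 1.91 and 2.62 CPM in the overexpression-labelled strain. The late deletion-labelled cultures were thus higher than the wild type by 8.54 ± 0.19 (adjusted p = 5.22e-14), while at 17 h the overexpression-labelled ones were lower (-1.11 ± 0.13, adjusted p = 1.88e-05). The carbon catabolite repressor creA rose late by 1.02 in the wild type, 1.54 in the deletion-labelled strain and 0.56 in the overexpression-labelled strain. AN6923, entered as a hexose transporter, rose by 6.91 ± 0.16, 1.72 ± 0.16 and 7.67 ± 0.17.

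The pentose phosphate list fell late in full, 4 of 4 genes in each strain, with medians of -2.22 in the wild type, -2.88 in the deletion-labelled strain and -2.64 in the overexpression-labelled strain. All 4 were lower than the wild type in the late deletion-labelled cultures, and 3 of 4 were higher at 17 h in the overexpression-labelled strain, where 15.1% of all genes were; AN2981 of these 3 missed the threshold with relative log expression scaling (0.25, adjusted p = 0.0516). The citrate cycle list fell in 4 of 5 genes in the wild type and 5 of 5 in each altered strain. With the entries of another symbol kept, it fell in 6 of 7 in the wild type and 7 of 7 in each altered strain. The aconitase acoA (-0.45 in the overexpression-labelled strain) was not called there with upper-quartile scaling (-0.25, adjusted p = 0.0535) or library totals (-0.09, adjusted p = 0.489) and was called higher with quantile normalisation (0.67, adjusted p = 3.88e-05). The late deletion-labelled cultures had 2 of the 5 higher and 3 lower than the wild type, again where 80% of all genes were called. The gluconeogenic PEP carboxykinase acuF was called higher late in all 3 strains, by 1.63 ± 0.14, 0.63 ± 0.14 and 0.36 ± 0.14. In the overexpression-labelled strain its harvests overlapped, with 186.5 and 204.1 CPM early and 295.5 and 203.9 CPM late. Against the late wild type, acuF was lower in both altered strains (-0.92 ± 0.14 and -0.87 ± 0.14). AN5604, with the symbol fbp1 in the annotation and entered as the gluconeogenic fructose-1,6-bisphosphatase, was not called late against early in the wild type (0.10, adjusted p = 0.515) or the overexpression-labelled strain (-0.05, adjusted p = 0.767) and rose by 0.51 ± 0.15 in the deletion-labelled strain. Against the late wild type it was at 0.31 ± 0.14 in the deletion-labelled strain (adjusted p = 0.0609) and lower in the overexpression-labelled strain (-0.53 ± 0.15, adjusted p = 0.0106). The ratio of pkiA to acuF counts, glycolytic against gluconeogenic enzyme at phosphoenolpyruvate, was 9.14 and 8.19 in the wild type at 17 h and 0.340 and 0.303 at 48 h. It was 2.02 and 1.80 in the late deletion-labelled strain and 0.599 and 0.879 in the late overexpression-labelled strain, above the wild type in both. For the steps between pgkA and pkiA, AN8720, entered as phosphoglycerate mutase, was at a low level in all groups, with means between 10.1 and 29.0 CPM. Its deposited log2 RPKM in the wild type at 17 h was 4.27, beside 10.77 for pgkA and 8.50 for pkiA. Whether AN8720 is the main gene of its step was not tested. It rose by 0.90 ± 0.16 in the wild type and was not called in the deletion-labelled strain. In the overexpression-labelled strain it fell by 0.60 ± 0.17, a call lost with library totals alone (-0.23, adjusted p = 0.196). AN5746, to which the annotation gives the symbol aspf22 (the name of the enolase allergen of Aspergillus fumigatus), fell in all 3 strains, to 9.79% of its early level in the wild type, 18.9% in the deletion-labelled strain and 11.8% in the overexpression-labelled strain. It was higher late in the deletion-labelled strain than in the wild type (0.72 ± 0.09, adjusted p = 2.98e-06).

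Markers of asexual development differed between the late groups. The summed level of 7 marker genes of conidiophores and spores (brlA, abaA, wetA, rodA, dewA, yA and AN8209) was 17.7 to 20.5 CPM over the 6 libraries of 17 h. Late it was 1002 to 1566 CPM in the wild type, 3907 to 3915 CPM in the overexpression-labelled strain and 16.6 to 18.0 CPM in the deletion-labelled strain, and none of the 7 was at 0 in any library. Most of the late sum was the spore hydrophobin rodA, with 809 and 1332 CPM in the wild type and 3595 and 3581 CPM in the overexpression-labelled strain; without rodA and dewA the late sums were 186 and 228 CPM against 306 and 329 CPM. All 7 were called higher late in the wild type and in the overexpression-labelled strain, where 40.3% and 38.2% of all genes were. Under quantile normalisation 4 of the 7 were called in the wild type, with abaA (-0.06, adjusted p = 0.823), wetA (-0.18, adjusted p = 0.527) and yA (0.30, adjusted p = 0.0723) not called. In the deletion-labelled strain 2 of the 7 were called higher late and 2 lower, where 41.3% and 39.3% of all genes were. The 2 higher were brlA (1.59, from 1.45 and 0.83 CPM to 2.72 and 3.87 CPM) and dewA (1.52, from 0.31 and 0.14 CPM to 0.56 and 0.68 CPM). With quantile normalisation 0 were called higher in that strain and 4 lower. All 7 were lower than the wild type in the late deletion-labelled cultures, where 39.8% of all genes were, and 5 of the 7, all but dewA and AN8209, were higher than the wild type in the late overexpression-labelled cultures, where 23% were. The part of this difference in the late values of the 10 genes was not tested.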

How the data were processed

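Raw read counts per gene were used as deposited; tools listed for them, without version, are HTSeq, edgeR, limma, BWA and Trimmomatic, per the submitters' processing notes, and the genome build and the use of strand are not given in the sources used here. The authors also deposited log2 RPKM, 1 value per group, read here for the order of genes within a group and, in the closing section, beside the changes from counts. Of 10727 entries, 15 repeated identifiers with the same values and 31 upstream reading frames (0.000199% of counts) were left out. Counts were fitted with edgeR 4.0.16 (R 4.3.3; TMM, filterByExpr, group means of 6 groups), which tested 9670 genes and left out 1011 below the filter; all 10 genes passed. The biological coefficient of variation was 8.2%, with 6 residual degrees of freedom. Benjamini-Hochberg adjustment ran over all tested genes in each of 9 contrasts. The test was checked on simulated counts in which a small set of genes changed only in the deletion-labelled group of 17 h. That check does not cover the late comparisons, where many more genes were called. Alternatives used limma 3.58.1 and DESeq2 1.42.0. Named were all 10 genes, AN7572, the 5 closest profiles in each search and any entry of the neighbouring lists, of whose 28 entries 4 were left out of the counts because the annotation gives them another symbol. The 7 markers of asexual development were counted in full, with AN8209 kept although the annotation gives it the symbol pksP. The rule that picks the 10 genes names identifiers and uses no value, but the genes, the lists and the tests were chosen with earlier results of these data known.

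The labels call the cultures duplicates. Cultures of a group differed by more than sampling noise (chi-square per degree of freedom 10.02 to 47.28), so none was merged. The replicate numbers 1 and 2 that the labels give carried no strong signal shared between groups. Deviations of cultures with the same number correlated by -0.153 to 0.101, and the fit had no block. A batch that does not follow these numbers would not show in such correlations. Nothing in the labels gives a sequencing batch. Taken over all genes, counting error was small beside the spread between cultures, by the same chi-square. For single genes it need not be. The pdcA counts of the late overexpression-labelled cultures were 1058 and 574, with a coefficient of variation of only 1.57% between their levels. With 2 cultures a group, an exact permutation test cannot pass 0.05, so single values carry no test of their own.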

Additional observations from a re-analysis of the deposited data

Results flagged for a closer look

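For 8 of the 10 genes the change from 17 h to the late harvest in the deletion-labelled strain differed from that in the wild type by a test of the difference itself (the interaction in edgeR's quasi-likelihood fit, adjusted over all genes, n = 2 cultures in each of 4 groups); the same test called 66.8% of all genes. The differences in log2 change were 4.02 for pdcA, 2.61 for pfkA, 1.66 for pkiA, 1.03 for pgkA, 0.71 for tpiA, 0.52 for gpdA, -0.44 for hxkA and -1.34 for pgi. The late hour differs between these strains, so strain and hour cannot be told apart. For 4 genes, where 28.9% of all genes were called, the same test called a difference in the overexpression-labelled strain, whose late hour is that of the wild type: -0.88 for hxkA, -0.69 for pgi, -0.62 for pfkA and 0.39 for pkiA. Both tests use the same wild type libraries.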

How the results depend on the processing

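Of 2070 log2 changes of the 10 genes recomputed under alternatives, 1984 kept their direction and their side of the threshold, 26 lost a call, 30 gained one and 30 changed sign, all of the last uncalled both ways; the cause was not tested. In the deletion-labelled strain at 17 h the genes called lower went from 0 to 4 with DESeq2, 2 with limma-voom and 2 in a fit on the compared groups alone, and ranged from 0 to 1 with 1 library left out. In the overexpression-labelled strain at 17 h the genes called higher went from 1 to 2 with library totals alone and to 2 with quantile normalisation, and ranged from 0 to 1 with 1 library left out, as they did late and in its interaction; there an adjusted p below 0.01 left 0. Of the 5 closest profiles, 2 for the mean and 3 for pdcA were shared with the search over 12 libraries.

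Sign changes with library totals alone were hxkA 0.0296 and pkiA 0.0616 (deletion-labelled, 17 h), fbaA -0.10 (its interaction) and glkA -0.0069 and pgkA -0.0235 (overexpression-labelled, interaction). With quantile normalisation, added after seeing the data, they were hxkA 0.0352 and pkiA 0.0901, gpdA 0.0023 (overexpression-labelled, 17 h), gpdA -0.0477 (deletion-labelled, late), fbaA -0.20, glkA -0.21 and pgkA -0.0840. The fbaA change of the overexpression-labelled strain at 17 h was -0.0082 with relative log expression scaling and -0.0081 with DESeq2. With 1 library left out, values ranged at 17 h from -0.0332 to 0.0751 for pgi and -0.0417 to 0.0227 for pkiA (deletion-labelled) and -0.0328 to 0.0814 for fbaA (overexpression-labelled). In the interactions they ranged from -0.10 to 0.11 for fbaA (deletion-labelled), -0.0225 to 0.0915 for glkA and -0.0839 to 0.15 for pgkA (overexpression-labelled).

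With a replicate block, which the labels do not support, the deletion-labelled strain at 17 h kept 0 calls among the 10 genes, and no count of called members moved in any comparison. Over all genes, the calls of that comparison fell from 161 to 42 at an adjusted p below 0.01 and ranged from 16 to 190 with 1 library left out; those of the overexpression-labelled strain fell at 0.01 from 2854 to 1743 at 17 h and from 2792 to 1808 in the interaction, with 1782 at the fewest at 17 h with 1 library left out. Library totals alone moved the median late change of all genes in the wild type from -0.04 to 0.36 and the share of upward calls from 48.4% to 60.2%; the like shares were 60.4% in the deletion-labelled strain (51.3% with TMM), 58.7% in the overexpression-labelled strain (46.7%), and at 17 h 36.5% (21.7%) and 68.1% (51%). All 10 late falls were called in all 3 strains under each setting run except pgi in the wild type under quantile normalisation. The calls that ended when 1 library was left out were of changes between -0.62 and 0.39; 2 cultures a group limit what can be said of changes of that size.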

Other observations

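The authors' deposited log2 RPKM gave smaller late falls than the counts did. For fbaA in the wild type the difference of the authors' deposited values was -0.79 where the fit on counts gave -1.82, and for pgi it was -0.17 where the fit gave -0.87. Over 70 differences of the 10 genes the gap to the fit on counts had a median of 0.193 and a highest value of 1.03. Against limma-voom on quantile-normalised counts, run after this was seen, the median gap was 0.00213 and the highest 0.0105. The sign was shared with the fit on counts in 66 of 70 differences. Which genes stood far apart between harvests (pdcA, pfkA) was visible on both scales, whereas for pgi in the wild type the call itself depended on the scale.

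The spread between the cultures of a group differed among the 10 genes. The median coefficient of variation lay between 2.28% and 4.83% over the 6 groups, and pfkA was the most variable of the 10 in 3 of them, at 13.7% in the deletion-labelled strain at 17 h, 20.5% in the overexpression-labelled strain at 17 h and 14.5% in that strain at 48 h.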
